A study of Mus musculus with 12 samples.

Results

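The genes described here are the Wnt ligands, their Frizzled receptors and the secreted modulators of the pathway, measured by DNA microarray in whole back skin. They were taken from the array by gene name, as every name that starts with Wnt, Fzd, Sfrp, Dkk or Rspo followed by a digit. This gave 41 of 27025 gene names, on 58 of 41174 probes. They comprised 19 Wnt ligands (24 probes), 10 Frizzled receptors (17 probes), 4 Sfrp (5 probes) and 4 Dkk (5 probes) inhibitors, and 4 R-spondins (7 probes). Male C57BL/6J mice, 8 weeks old and shaved on the back, received 200 µL daily of 3% minoxidil (MXD), 10% of a cell extract of the cactus Notocactus ottonis (N-CE) or the vehicle alone (VC), which is propylene glycol, ethanol and water. Skin was taken after 1 week (1W), 2 weeks (2W) or 3 weeks (3W), and RNA of 6 mice was pooled per group. The 6 comparisons, each of a treated pool against VC of the same week, were made on 12 arrays, 2 per comparison with exchanged dyes. The labels name no deletion or transgene, and the pools hide any spread between mice. Both treatments of a week shared 1 VC pool and 1 slide, so week and slide cannot be told apart.

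Wnt proteins are secreted, lipid-modified ligands that bind Frizzled receptors. With the co-receptors Lrp5 and Lrp6 they stabilize β-catenin, which acts with Lef1 and Tcf factors on target genes, and other branches control cell polarity and movement. Sfrp proteins bind Wnt ligands outside the cell, Dkk1, Dkk2 and Dkk4 bind the Lrp co-receptors, and R-spondins act through Lgr receptors to keep Frizzled on the cell surface. In skin, Wnt signalling is known for its part in the formation of the hair follicle and in its entry into the growth phase, anagen.

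All values below are log2 folds of treated over VC unless called a level, and ± gives the SD between the paired arrays (n = 2), which is the error of the measurement and not of the mice. Up- or down-regulated means that both arrays shifted alike, each with a deposited spot P under 0.01, and that the mean fold exceeded 1.5 or was less than 0.75. Such probes are called. Since each group was 1 pool, no test across mice was possible within a week. Between 57.0% and 69.6% of the transcript spots of an array were well above background in a channel. A group counted as above background in a comparison when at least 1 of its 2 arrays was. Of the 41 genes, 30 were above background in both groups in every comparison. Dkk4, Wnt2b, Wnt8a and Wnt8b were above background in none of them, and the other genes were dim in some. The 2 arrays of a comparison correlated across members with r between 0.54 and 0.80 for MXD at the 3 weeks and N-CE at 1W, with 32 or 33 genes each. For N-CE at 2W and 3W r was 0.33 and 0.05, over 34 and 33 genes, so small folds there did not repeat between arrays. Genes are not independent replicates, and these values are a description.

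Called probes of these genes were most numerous in MXD at 2W, as were those of the whole array. There 9 of the 58 probes (15.5%) were up-regulated, against 4.04% of all probes, and 5 (8.62%) were down-regulated, against 5.83% of all probes. The up-regulated genes were Wnt5a, Wnt11, Fzd1, Fzd3, Fzd5, Fzd10 and Sfrp1, and the down-regulated genes were Wnt2, Fzd9, Sfrp2, Sfrp4 and Dkk2. MXD at 1W had 1 up-regulated probe, for Rspo2, with 0.688% of all probes up-regulated, and 1 down-regulated probe, for Fzd9, with 0.765%. At 3W MXD had 0 called members, with 0.304% of all probes called in either direction. In N-CE at 1W, 3 member probes were down-regulated, for Wnt5a, Fzd5 and Fzd10, against 1.49% of all probes, and 0 were up-regulated, against 0.292%. N-CE had 0 called members at 2W and 3W, where 0.119% and 0.29% of all probes were called. In all, 13 genes had a called probe in at least 1 comparison and 28 had none.

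**Figure D1:**
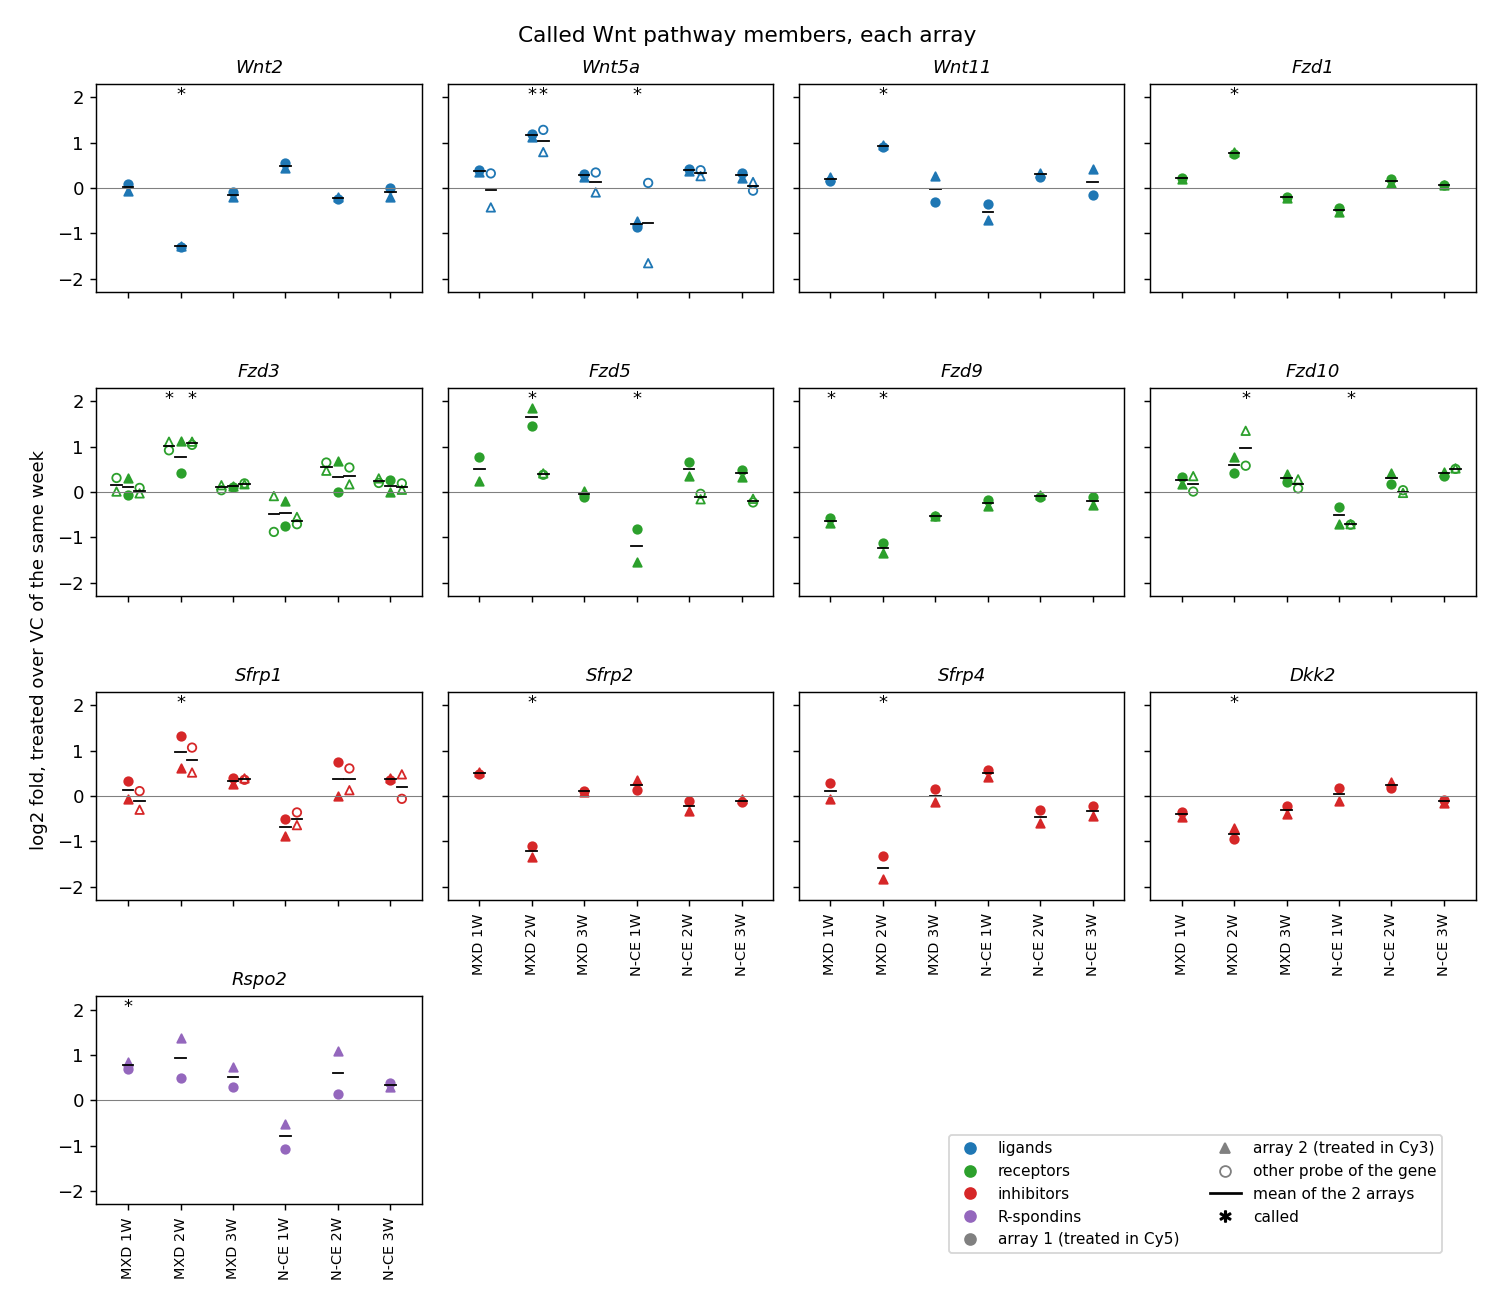
Log2 fold of treated over VC (vertical axis) for the 13 genes with a called probe, in the 6 comparisons (horizontal axis). Circles are the arrays with the treated pool in Cy5, triangles those with it in Cy3, bars their mean, open symbols the other probes of a gene, and stars called probes. Probes above background in neither group are left out. In MXD 2W the stars stand above points on both sides of 0, and in N-CE 1W the 3 stars stand above points below 0.

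Among the ligands, Wnt5a rose in MXD at 2W and fell in N-CE at 1W. Wnt5a is best known for β-catenin independent signalling and is expressed in the dermal papilla. Its probe A_52_P250865 (chromosome 14 of mm9, 29340427 to 29340486) gave 1.19 and 1.12 on the 2 arrays of MXD 2W and -0.86 and -0.73 on those of N-CE 1W. The means were 1.16 ± 0.05 and -0.79 ± 0.09. In the other 4 comparisons both arrays lay above 0, between 0.22 and 0.42, and none was called. A further Wnt5a probe, A_51_P162272, was also up-regulated in MXD 2W, with 1.28 and 0.79. With normexp and loess its mean of 1.04 became 0.51 and it was no longer called. In N-CE 1W its arrays disagreed, with 0.11 and -1.66.

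Wnt11, another ligand tied to β-catenin independent signalling, was up-regulated in MXD 2W. Its probe (chromosome 7 of mm9, 106001985 to 106002045) gave 0.91 and 0.95 there, a mean of 0.93 ± 0.03. In N-CE 1W it gave -0.35 and -0.71, both below 0 and not called. Wnt2, a ligand of the β-catenin branch, went the other way (chromosome 6 of mm9, 17939284 to 17939343). In MXD 2W it was down-regulated, with -1.30 and -1.28 on the 2 arrays and a mean of -1.29 ± 0.02. In N-CE 1W its arrays read 0.55 and 0.43. In the other 4 comparisons no array of Wnt2 lay farther from 0 than -0.25.

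The remaining ligands were not called. Wnt10b, which is associated with the onset of anagen, gave 1.25 and 0.77 in MXD 2W without passing the P criterion. With normexp and loess its mean of 1.01 became 0.39. In N-CE 1W its signal was above background in VC alone, with a nominal bound of 1.05-fold lower in N-CE. Its levels there were 6.56 and 6.49 in VC and 6.43 and 6.49 in N-CE. Wnt10a, made by the follicle epithelium, stayed between -0.32 and 0.20 on all 12 arrays. Wnt3a stayed between -0.18 and 0.28. Wnt3 and Wnt4, which are expressed in the epidermis, differed between the 2 arrays of MXD 2W, with -0.20 and 0.05 for Wnt3 and 0.68 and 0.12 for Wnt4. The dimmer Wnt3 probe, A_52_P258116, gave 0.48 and 0.09 there. Wnt7b, a ligand of the follicle epithelium, gave -0.49 and -1.18 in MXD 2W and 0.48 and 0.29 in N-CE 1W. Over the 16 ligands measured in MXD 2W the median was 0.07, with 9 above and 7 below 0, and the median of all genes measured there was 0.03. In N-CE 1W the median of 15 ligands was 0.06. Wnt16 and Wnt7a were above background in VC alone in MXD 2W, with nominal bounds of 1.17-fold and 1.06-fold lower in MXD. For Wnt7a VC was above background on 1 of 2 arrays. Wnt1, above background in VC alone in MXD 1W, had a nominal bound of 1.03-fold lower in MXD. The bounds of these ligands were within the differences of the same VC RNA between arrays of a week.

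In MXD 2W 8 of 10 receptors were above 0, with a median of 0.53, and in N-CE 1W 9 of 10 were below 0, with a median of -0.33, whereas all genes measured there had a median of 0.02. Fzd5 had the largest called rise of the members. Its probe A_52_P224125 (chromosome 1 of mm9, 64779196 to 64779255) gave 1.45 and 1.86 in MXD 2W and -0.81 and -1.55 in N-CE 1W. The means, 1.65 ± 0.29 and -1.18 ± 0.52, became 1.31 and -0.65 with another background correction (normexp with an offset of 50, then loess). In N-CE it was above 0 on both arrays at 2W, with 0.67 and 0.35, and at 3W, with 0.48 and 0.34. The other Fzd5 probe, A_51_P166456, gave only 0.38 and 0.41 in MXD 2W and was below background in both groups in N-CE 1W.

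Fzd10 was called through 1 of its 2 probes. A_51_P233367 (chromosome 5 of mm9, 129108855 to 129108914) gave 0.58 and 1.35 in MXD 2W and -0.72 and -0.71 in N-CE 1W. The brighter probe, A_52_P203560, gave 0.42 and 0.77, and -0.33 and -0.70, in the same directions and not called. Both Fzd10 probes were above 0 on both arrays of N-CE 3W, between 0.36 and 0.52. Fzd3 likewise was called in MXD 2W through 2 of its 3 probes, with means of 1.08 ± 0.05 and 1.02 ± 0.14. These became 0.70 and 0.48 with normexp and loess, and the probe with 0.48 was then no longer called. The brightest Fzd3 probe (chromosome 14 of mm9, 65811641 to 65811700) gave 0.41 and 1.13 and was not called. Fzd1 was represented by 1 probe (chromosome 5 of mm9, 4754003 to 4754062), up-regulated in MXD 2W with 0.74 and 0.80. Fzd1 read -0.44 and -0.54 in N-CE 1W and -0.19 and -0.22 in MXD 3W.

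Fzd9 went against its family and was the member called in MXD at more than 1 week. Its probe (chromosome 5 of mm9, 135724815 to 135724874) was down-regulated at 1W, with -0.57 and -0.69, and at 2W, with -1.13 and -1.34. At 3W its arrays gave -0.52 and -0.54 and did not pass the P criterion. In N-CE the 6 arrays lay between -0.31 and -0.06. Fzd4, a receptor of endothelial cells among others, was the other receptor below 0 in MXD 2W, with -0.33 and -0.55, and was not called.

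**Figure D2:**
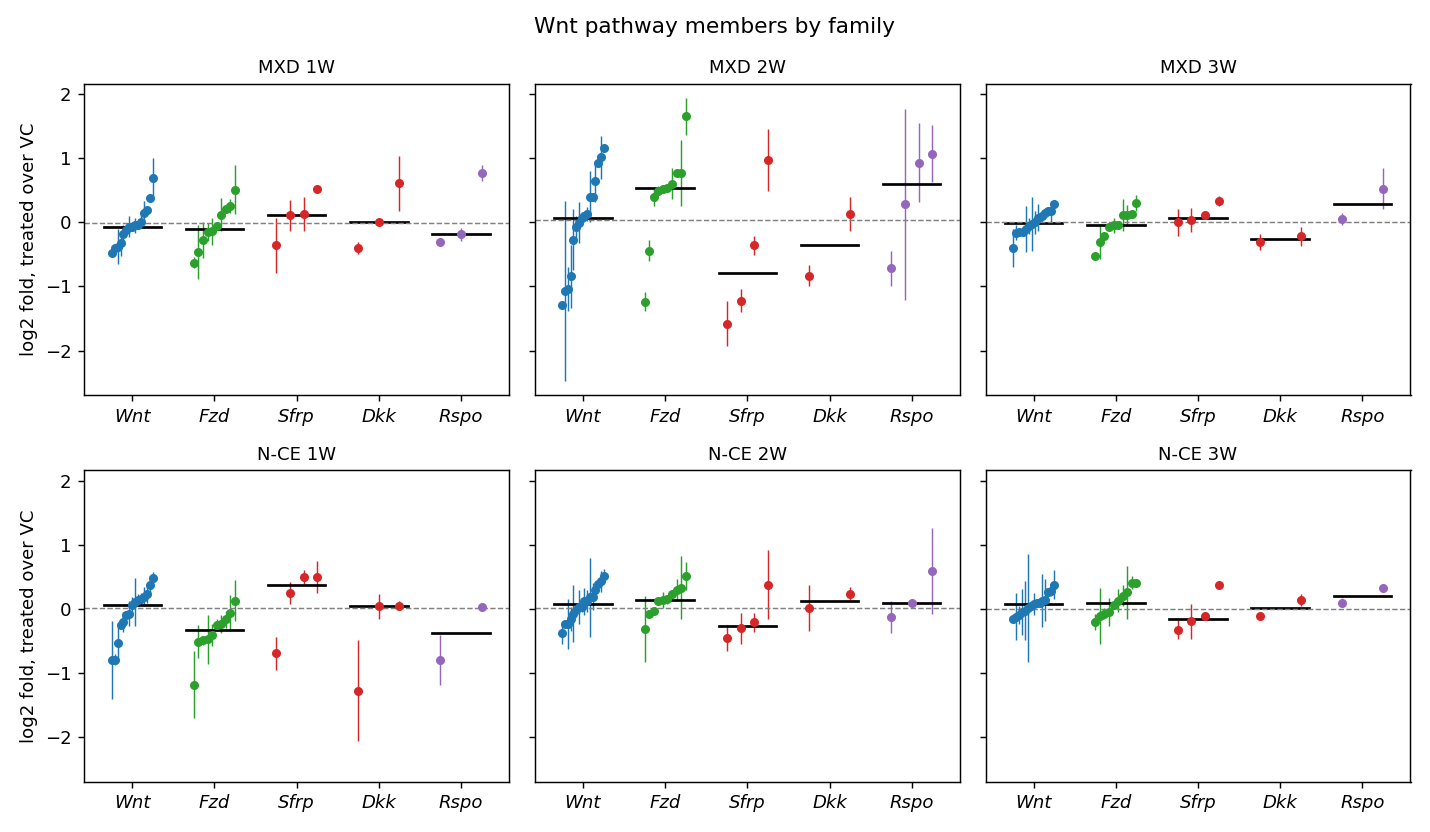
Log2 fold of treated over VC (vertical axis) of each gene above background in at least 1 group, by family, in the 6 comparisons. Points are dye-swap means of the brightest probe with the SD over 2 arrays, black bars family medians, and dashed lines the median of all genes measured. The receptor median is 0.53 in MXD 2W and -0.33 in N-CE 1W, and that of the Sfrp genes is -0.79 and 0.37. Points with very wide bars are dim genes such as Wnt7a and Rspo3 in MXD 2W.

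The inhibitors were led by Sfrp genes, and these did not move as 1 block. Sfrp2 and Sfrp4, which are expressed in the dermis, were down-regulated in MXD 2W. Sfrp2 (chromosome 3 of mm9, 83577864 to 83577923) gave -1.10 and -1.35 there, a mean of -1.22 ± 0.18. At 1W of MXD both arrays had been above 0, with 0.49 and 0.54. Sfrp4 (chromosome 13 of mm9, 19724488 to 19724547) gave -1.33 and -1.82 in MXD 2W and 0.58 and 0.42 in N-CE 1W. At -1.58 ± 0.35 it was the lowest mean of a called member.

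Sfrp1 went the other way. Its brighter probe (chromosome 8 of mm9, 24558112 to 24558171) was up-regulated in MXD 2W with 1.32 and 0.62, and the other probe gave 1.07 and 0.52 without being called. In N-CE 1W the brighter probe read -0.50 and -0.87. The 4 Sfrp genes had a median of -0.79 in MXD 2W, with 3 below 0, and of 0.37 in N-CE 1W, with 3 above 0.

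Among the Dkk genes, Dkk2 was down-regulated in MXD 2W. Its probe (chromosome 3 of mm9, 131842357 to 131842416) gave -0.95 and -0.71. The MXD arrays of 1W, with -0.34 and -0.47, and of 3W, with -0.22 and -0.40, were below 0 too. In N-CE the 6 arrays lay between -0.15 and 0.31. Dkk1, an inhibitor associated with follicle regression, was above background in both groups in MXD 1W alone, with 0.31 and 0.91, and was not called. With normexp and loess its mean of 0.61 became 0.03. In N-CE 1W the signal of Dkk1 was above background in VC alone, on 1 of the 2 arrays. The nominal bound there was 1.1-fold lower in N-CE, within the differences of the same VC RNA between arrays of a week. Dkk3, a family member that does not bind the Lrp co-receptors, stayed between -0.32 and 0.32 on all 12 arrays.

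Of the R-spondins, Rspo2 was up-regulated in MXD 1W, with 0.68 and 0.85 (chromosome 15 of mm9, 42852727 to 42852786). With normexp and loess its mean of 0.77 ± 0.12 became 0.43 and it was no longer called. In MXD 2W its arrays gave 0.49 and 1.37, and in N-CE 1W -1.07 and -0.52, on the same side of 0 within each comparison. Rspo1 gave -0.92 and -0.52 in MXD 2W and was not called. Rspo3 and Rspo4 were near or below background. In MXD 1W Rspo3 was above background in VC alone, with a nominal bound of 1.04-fold lower in MXD. In MXD 2W Rspo4 was above background in MXD alone, with a nominal bound of 1.05-fold higher. Its level on the first array was however 6.24 in MXD and 6.26 in VC. For both genes the brighter group was above background on 1 of 2 arrays. Both bounds were within the differences of the same VC RNA between arrays of a week.

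Promoter sequences are shown for the called members that rose in MXD 2W and for the inhibitors that fell there, as far as the reference table held them. RefSeq windows (GRCm38.p6) were matched by symbol for 27 of the 41 genes and 8 of the 13 called genes. Each stretch is the 250 bases before the annotated start, 5′ to 3′ on the gene's strand. Capitals mark a TCF/LEF motif (CTTTG followed by AA, AT, TA or TT, on either strand) or a TATAAA on either strand. The 4 TCF/LEF words differ from each other and do not overlap TATAAA. The windows are chr5:4758217-4758466 on the minus strand for Fzd1, chr1:64737751-64738000 on the minus strand for Fzd5, chr5:128600856-128601105 on the plus strand for Fzd10 and chr7:98834862-98835111 on the plus strand for the first of 2 Wnt11 windows. For the inhibitors they are chr3:83766071-83766320 for Sfrp2 and chr3:132085042-132085291 for Dkk2, both on the plus strand.
Fzd1: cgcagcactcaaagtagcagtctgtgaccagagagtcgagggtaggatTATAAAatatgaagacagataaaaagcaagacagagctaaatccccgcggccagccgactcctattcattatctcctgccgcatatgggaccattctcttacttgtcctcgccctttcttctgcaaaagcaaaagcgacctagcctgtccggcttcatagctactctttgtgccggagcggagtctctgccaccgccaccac
Fzd5: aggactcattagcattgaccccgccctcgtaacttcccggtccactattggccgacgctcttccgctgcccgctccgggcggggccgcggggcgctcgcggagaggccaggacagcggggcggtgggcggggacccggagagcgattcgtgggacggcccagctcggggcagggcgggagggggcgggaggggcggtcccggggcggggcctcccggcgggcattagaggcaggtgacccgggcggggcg
Fzd10: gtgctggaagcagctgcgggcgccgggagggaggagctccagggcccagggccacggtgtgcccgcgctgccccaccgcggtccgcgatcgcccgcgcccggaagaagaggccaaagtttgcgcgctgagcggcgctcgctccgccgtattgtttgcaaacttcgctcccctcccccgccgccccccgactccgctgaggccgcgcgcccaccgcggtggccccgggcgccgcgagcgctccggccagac
Wnt11: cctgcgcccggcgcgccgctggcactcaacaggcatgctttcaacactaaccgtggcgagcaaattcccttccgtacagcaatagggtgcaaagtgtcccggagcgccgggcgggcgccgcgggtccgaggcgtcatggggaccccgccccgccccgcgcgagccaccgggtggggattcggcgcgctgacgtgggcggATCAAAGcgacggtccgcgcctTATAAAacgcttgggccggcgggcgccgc
Sfrp2: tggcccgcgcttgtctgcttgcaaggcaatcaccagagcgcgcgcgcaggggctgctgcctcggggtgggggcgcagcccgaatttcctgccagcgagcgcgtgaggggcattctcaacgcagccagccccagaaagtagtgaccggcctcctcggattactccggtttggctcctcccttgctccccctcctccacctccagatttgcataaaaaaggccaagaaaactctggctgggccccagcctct
Dkk2: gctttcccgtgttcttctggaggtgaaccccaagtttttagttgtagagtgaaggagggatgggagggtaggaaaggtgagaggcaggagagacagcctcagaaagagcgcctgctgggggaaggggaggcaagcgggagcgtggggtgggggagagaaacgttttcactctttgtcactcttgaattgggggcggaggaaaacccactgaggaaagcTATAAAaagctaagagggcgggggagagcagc
A TCF/LEF motif was in 4 of the 30 member windows (13.3%), against 14.8% of the 32851 windows in the table. TATAAA was also in 4 (13.3%), against 12.4%. Of the windows shown, Wnt11 held both, Fzd1 and Dkk2 held TATAAA, and Fzd5, Fzd10 and Sfrp2 held neither. The Wnt11 window was picked for its TCF/LEF motif, and the second Wnt11 window, not shown, held neither. Members had a median of 22 CpG dinucleotides per window and 68.8% G and C, against 6 and 52.4% in the whole table. Fzd10 had 37 CpG, Fzd5 32 and Dkk2 7. Whether the arrays' values are tied to these letters was not tested.

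MXD 2W and N-CE 1W, which share neither a VC pool nor a slide, ran in opposite directions for most members. Of the 31 members above background in both groups of both comparisons, 25 had opposite signs, and r across genes was -0.79. All genes ran the same way, with opposite signs in 11911 of 16450 and an r of -0.60. The members thus followed a pattern of the whole array, and nothing particular to them was tested. N-CE 1W likewise opposed N-CE 2W and N-CE 3W, with 24 of 32 members of opposite sign in each. The r was -0.77 and -0.78 over members, and -0.47 and -0.33 over all genes. Opposite signs were thus also seen between weeks of N-CE, where week and slide cannot be told apart, and their cause was not tested. Fzd5, Wnt5a, Fzd10, Wnt11, Fzd1, Rspo2 and Sfrp1 were above 0 in MXD 2W and below 0 in N-CE 1W. Wnt2, Sfrp2, Sfrp4 and Wnt7b lay in the opposite corner. Fzd9 was below 0 in both, with -1.24 ± 0.15 and -0.25 ± 0.09. Members in N-CE 3W resembled those in MXD 2W in sign, with 28 of 32 alike and an r of 0.77, against 0.48 over 16326 genes. The 2 arrays of N-CE 3W correlated at only 0.05 over members.

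**Figure D3:**
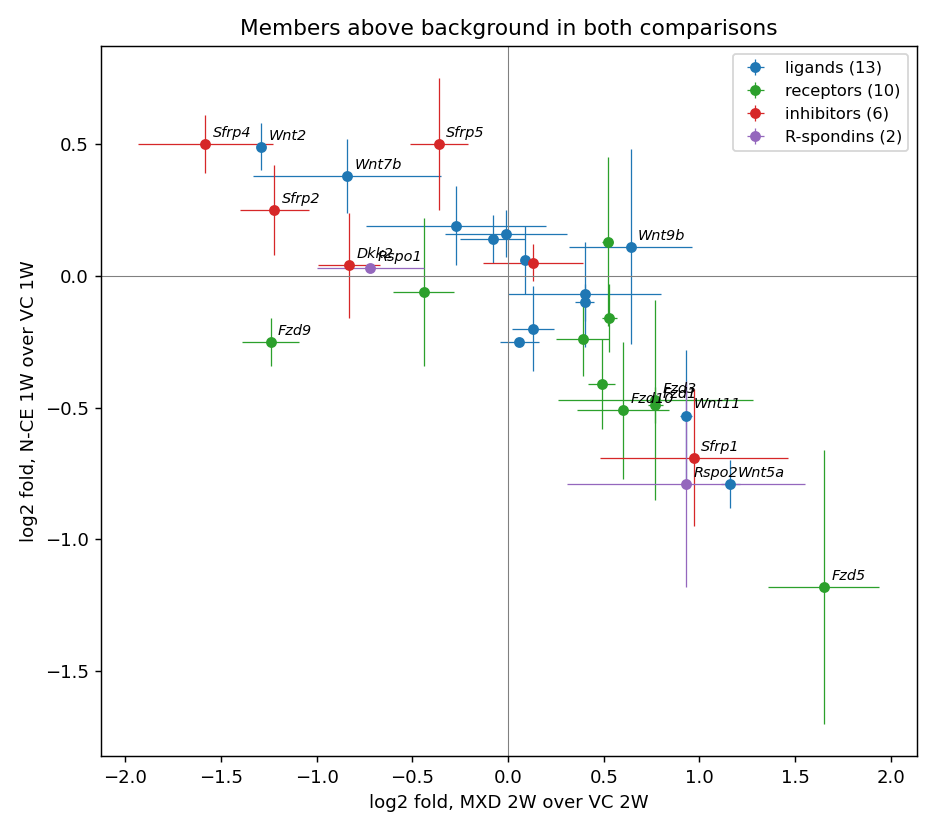
Log2 fold in MXD 2W (horizontal axis) and in N-CE 1W (vertical axis) for the 31 members above background in both groups of both comparisons. Points are dye-swap means, lines the SD over 2 arrays, and colours the classes. Points run from the upper left, with Sfrp4 and Wnt2, to the lower right, with Wnt5a and Fzd5, and Fzd9 lies below 0 on both axes.

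Levels put these folds beside the course of VC. A level is the log2 intensity of 1 channel after normexp, loess and quantile normalization, compared only within a probe. Weeks lie on different slides, so a change of level with week cannot be told apart from the slide. As a check of the error, the same VC RNA on the MXD and the N-CE arrays of a week differed by -0.24 to 0.23 over the members at 1W. The range was -0.34 to 0.41 at 2W and -0.18 to 0.43 at 3W. In VC, the mean level of Wnt5a over the successive weeks was 9.11, 9.44 and 9.86, and that of Wnt11 was 8.48, 8.86 and 9.34. Fzd9 ran from 8.92 to 8.20 and 7.82, and Wnt2 from 9.48 to 9.27 and 8.91. Of 30 members above background in all 4 VC readings of both 1W and 3W, Wnt10b among them, 16 had readings at 3W that did not overlap those of 1W, 9 higher and 7 lower. Over all genes 15.4% were higher and 23.1% lower in this sense.

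Against this course, MXD at 2W stood outside VC at all 3 weeks for several members. Wnt5a in MXD 2W had levels of 10.60 and 10.56, above the highest VC reading, 10.05 at 3W. Fzd5 in MXD 2W read 8.83 and 9.20, above every VC reading, which were at most 8.11. Fzd5 in N-CE lay above them too, with 8.66 and 8.20 at 2W and 8.49 and 8.40 at 3W. Sfrp2 in MXD 2W read 10.82 and 10.89, below every VC reading, of which the lowest was 11.65. Sfrp2 in N-CE lay below them by less, with 11.55 and 11.41 at 2W and 11.55 and 11.61 at 3W. N-CE at 1W had the lowest levels of Wnt5a, 8.34 and 8.33, below the lowest VC reading of 8.93. By 3W the 2 MXD readings of Wnt5a, 10.18 and 10.03, and those of N-CE, 9.98 and 10.25, overlapped VC, at 9.68 to 10.05.

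**Figure D4:**
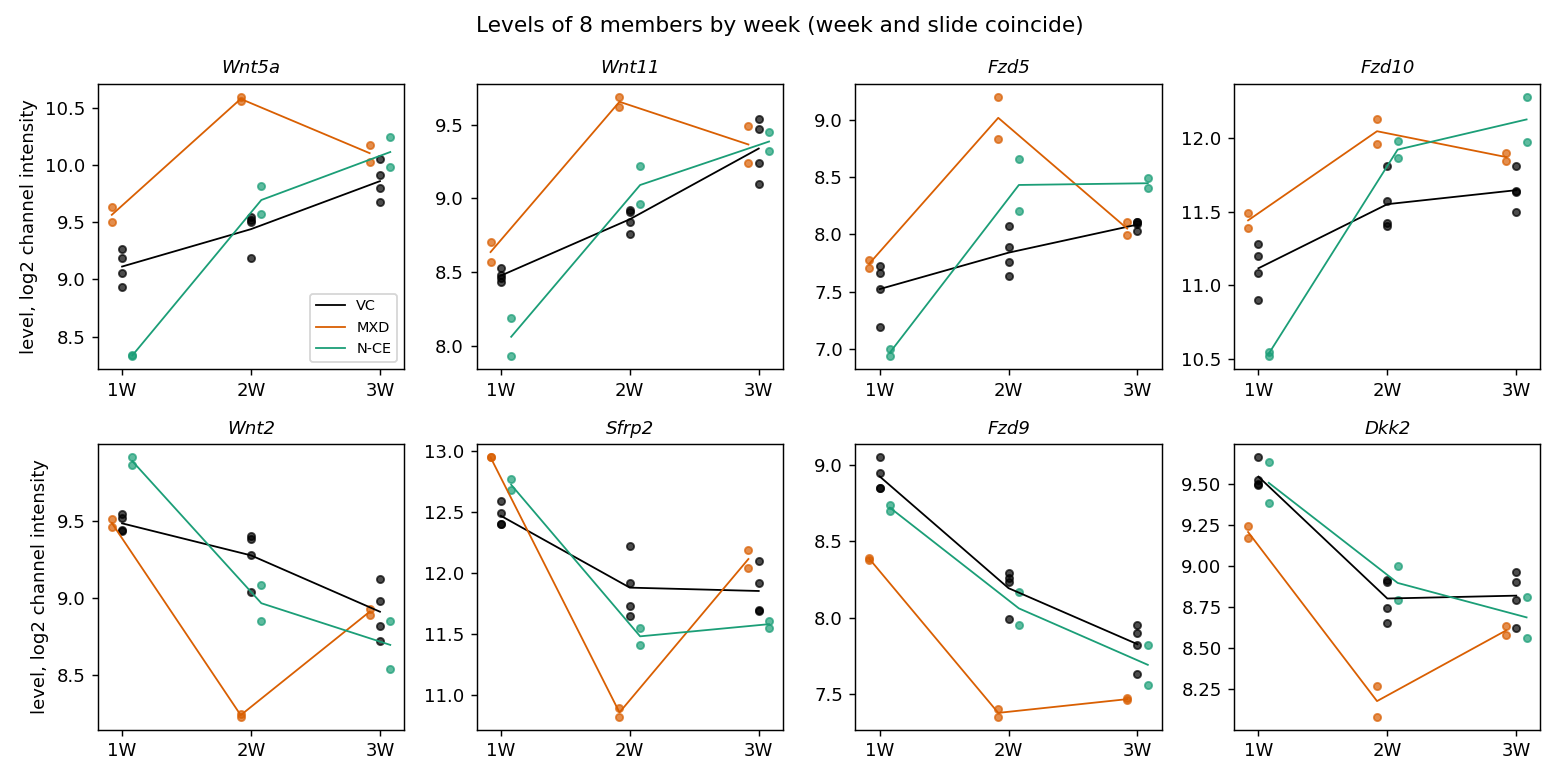
Level (vertical axis, log2 channel intensity, scaled per gene) of 8 called members at 1W, 2W and 3W (horizontal axis). Points are single channels, 4 for VC and 2 each for MXD and N-CE, and lines join their means. In the upper row MXD 2W lies above VC 2W and N-CE 1W below VC 1W, and in the lower row MXD 2W lies below VC 2W.

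With the 3 weeks of a treatment taken as replicates, no probe passed limma's moderated test. For MXD 0 of 40820 probes (0%) had an adjusted p under 0.05, with 4220 at an unadjusted p under 0.05, of which 11 were among the 58 member probes. These included the probes of Wnt8a, Dkk4 and Wnt2b, which were above background in no comparison. Fzd9 had a mean of -0.80 over the 3 weeks, below 0 in 6 of 6 arrays, with an unadjusted p of 0.003 and an adjusted p of 0.47 by limma. Dkk2 had a mean of -0.51, below 0 in 6 of 6 arrays, with an adjusted p of 0.47 by limma. For N-CE 0 probes (0%) passed, with 1013 at an unadjusted p under 0.05 and 1 of them a member. The difference of MXD and N-CE within a week gave 0 probes (0%), 2021 at an unadjusted p under 0.05 and 5 members among them. With dim probes left out, 40 member probes remained. Of these, 7 had an unadjusted p under 0.05 by limma for MXD, 0 for N-CE and 9 for the difference. Over all 24647 probes that remained, the counts were 3232 for MXD, 255 for N-CE and 1776 for the difference. Weeks are stages of a time course, so this spread holds time effects as well.

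Other genes of the pathway were taken from lists by role. In MXD 2W, 15 of 74 probes of cytoplasmic and nuclear components were up-regulated and 0 down-regulated, with a list median of 0.30. In N-CE 1W 4 were down-regulated and 0 up-regulated. For these and the following lists, the shares over all probes were 4.04% up and 5.83% down in MXD 2W, and 0.292% up and 1.49% down in N-CE 1W. The median of all genes measured was 0.03 and 0.02. Lef1, the transcription factor that carries β-catenin to target genes, was called in both, with -1.92 in N-CE 1W and 1.47 in MXD 2W on its probe A_51_P501145. Vangl2, a core planar polarity protein, gave 0.71 in MXD 2W and -0.66 in N-CE 1W on its brightest probe, A_52_P496775, both called. Prickle1, another planar polarity gene, was called through a dimmer probe alone, A_52_P503849, with 0.68 in MXD 2W and 0.65 in N-CE 3W. With normexp and loess these became 0.47 and 0.39, under the fold criterion. Its brightest probe, A_51_P385370, gave 0.39 and -0.01 and was not called.

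Of 32 probes of target genes, 14 were up- and 1 down-regulated in MXD 2W, and 7 were down- and 0 up-regulated in N-CE 1W. Lef1, Tcf7 and Wif1 stand on more than 1 list. Msx2, a follicle homeobox gene, gave 1.20 in MXD 2W and -2.15 in N-CE 1W. Hoxc13, a homeobox gene of the hair shaft, gave 1.10 and -1.51, which became 0.73 and -0.42 with normexp and loess. Foxn1, needed for hair shaft differentiation, gave 1.26 and -0.85. Nkd2, an intracellular antagonist of Wnt signalling, gave 1.00 and -0.64 on its probe A_51_P345549.

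Among 22 probes of secretion factors and other secreted modulators, 2 were up- and 3 down-regulated in MXD 2W. Wif1, a secreted protein that binds Wnt ligands, gave 1.06 in MXD 2W and -1.24 in N-CE 1W. Cthrc1, a secreted collagen triple helix protein tied to planar polarity signalling, was called in 5 comparisons. It was up-regulated in MXD 1W, with 1.03, and N-CE 1W, with 0.78, and down-regulated in MXD 2W, with -1.05, MXD 3W, with -0.63, and N-CE 3W, with -0.65. Of 24 probes of the receptor complex 1 was up- and 2 were down-regulated in MXD 2W, and 0 were called in N-CE 1W, counts near the 4.04% up, 5.83% down and 1.49% down over all probes.

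Markers of hair moved in MXD 2W and N-CE 1W, and those of muscle and dermal fibroblasts in MXD 2W. Over all probes 4.04% were up- and 5.83% down-regulated in MXD 2W and 1.49% down-regulated in N-CE 1W. Some markers were also called where few or no members were. Of 43 skeletal muscle probes, 18 were down- and 3 up-regulated in MXD 1W, and 12 were down-regulated in MXD 3W. Of 13 melanocyte probes, 4 were up-regulated in MXD 1W and 8 in MXD 3W. Over all probes 0.688% were up- and 0.765% down-regulated in MXD 1W, and 0.304% were called in MXD 3W. In MXD 2W 14 of 14 hair shaft keratin probes were up-regulated, and the summed intensity of the 12 genes was 363000 to 374000 in MXD and 127000 to 174000 in VC. In N-CE 1W 13 of 14 were down-regulated, with sums of 11900 to 14400 in N-CE and 62000 to 67300 in VC. Inner root sheath probes were up-regulated in 6 of 8 cases in MXD 2W and down-regulated in 7 of 8 in N-CE 1W, and melanocyte probes in 11 of 13 and 8 of 13. Proliferation genes had 12 of 17 probes up-regulated in MXD 2W, with sums of 14900 to 15100 against 8270 to 8940, and 12 of 17 down-regulated in N-CE 1W, with sums of 4580 to 4780 against 8410 to 9110. Of 14 probes for bulge and hair germ, 6 were up- and 2 down-regulated in MXD 2W and 6 were down-regulated in N-CE 1W. Of 22 dermal papilla probes, 1 was up- and 1 down-regulated in MXD 2W and 2 were down-regulated in N-CE 1W. The dermal papilla marker Sox2 was not above background in either comparison.

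Beside the fall of Wnt2, Sfrp2, Sfrp4 and Dkk2 in MXD 2W, 7 of 16 dermal fibroblast probes were down-regulated and 0 up-regulated, and their genes summed to 122000 to 161000 in MXD and 248000 to 252000 in VC. Skeletal muscle probes were down-regulated in 38 of 43 cases, with sums of 173000 to 250000 against 556000 to 560000. Down-regulated too were 6 of 12 adipocyte probes, with sums of 69900 to 77000 against 95700 to 102000, and 6 of 19 leukocyte probes, with sums of 18700 to 21500 against 29000 to 38200 and 1 probe up-regulated. Endothelial probes fell in 3 of 12 cases, and of 10 interfollicular probes 4 were down- and 1 up-regulated. In N-CE 1W 0 fibroblast, muscle, adipocyte, endothelial or interfollicular probes were called. In whole skin, fewer cells of a type and less RNA per cell cannot be told apart. The part of these shifts in the members' values was not tested.

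**Figure D5:**
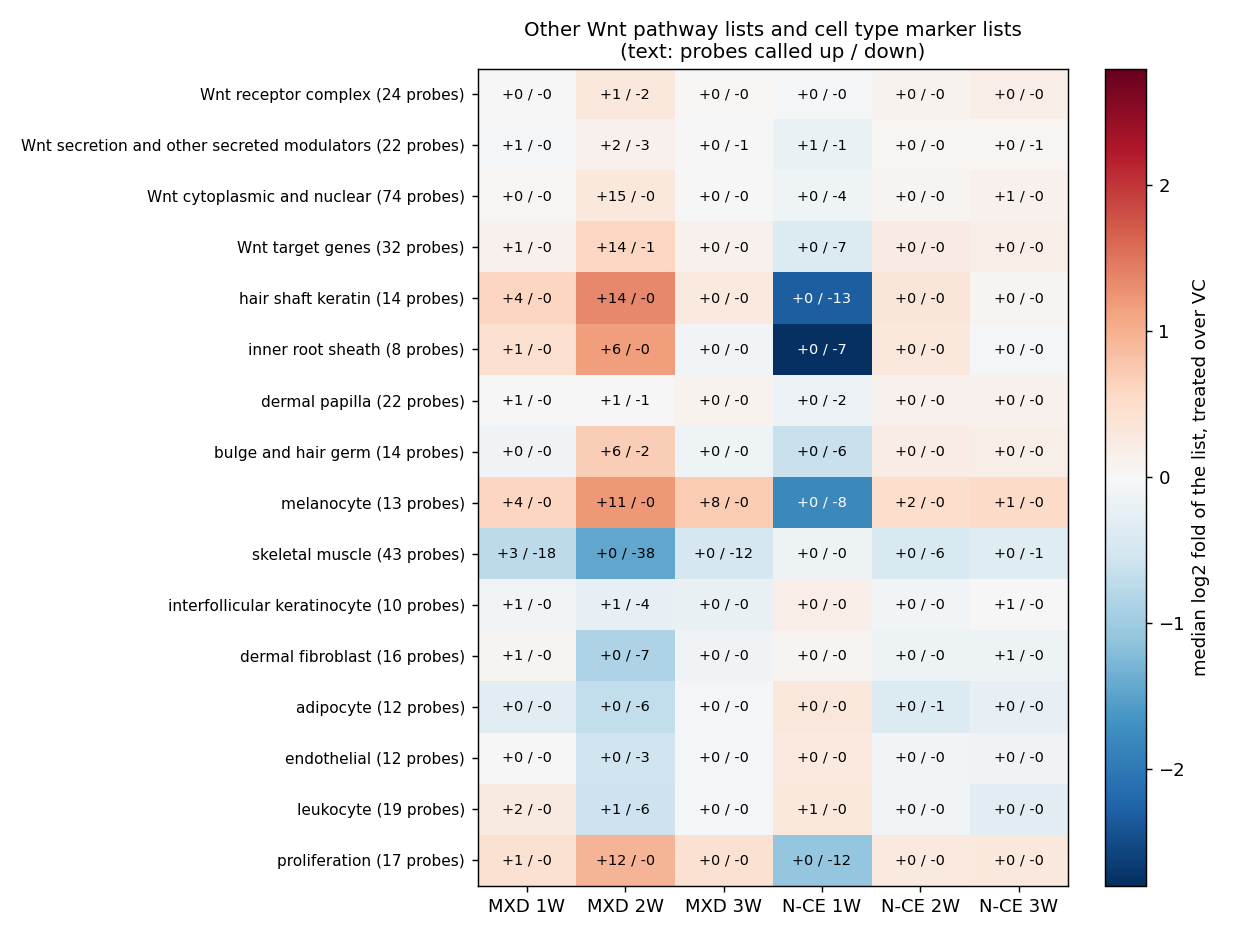
Median log2 fold (colour) of other Wnt pathway lists and of cell type marker lists (rows) in the 6 comparisons (columns), with the number of probes called up and down written in each cell. Hair shaft keratins have 14 probes up in MXD 2W and 13 down in N-CE 1W, skeletal muscle has 38 down in MXD 2W, and the Wnt target genes have 14 up in MXD 2W and 7 down in N-CE 1W.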

How the data were processed

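RNA pools of mouse back skin were measured on 12 two-colour Agilent arrays with 60-base probes. The authors scanned them and deposited the output of Agilent Feature Extraction (version 12.0.3.1 per the file headers, 11.0.1.1 per the submitters' processing notes) and a matrix of log10 ratios. The deposited log10 ratio is Cy5 over Cy3 after background subtraction and LOWESS dye normalization, set to 0 where neither channel exceeded background. The p-value deposited by the authors comes from the software's error model and describes a spot. Signal intensities were deposited by the authors raw and processed, and the matrix differed from log10 of the processed ratio by at most 5e-09. Probe positions are on mm9.

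Ratios were turned to treated over VC, put on the log2 scale and averaged, first over repeated spots and then over both arrays, without control spots and without 14 of 804 member readings marked as outliers. The probe of highest mean signal stood for its gene, and a called dimmer probe is named with its own value. Of 58 member probes, 53 carried an accession of the RefSeq table (GRCm38.p6), all with the same symbol. Where 1 group alone was above background, a nominal lower bound of the fold is given. It comes from means of normalized single channels against the lowest signal well above background, which is open to dye bias. All bounds given were within the differences of the same VC RNA between arrays of a week, so none shows a change. Family medians took each gene above background in at least 1 group with its log ratio. Weekly folds were tested with limma 3.58.1 (R 4.3.3), all 6 comparisons in 1 fit, with Benjamini-Hochberg adjustment over all probes. The difference of treatments was fitted within weeks. Other steps used Python 3.11.15, numpy 2.4.6 and pandas 2.3.3, and calls and fits were tested on simulated data.

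Genes named are all members with a called probe, a list of follicle Wnt genes, and other pathway genes called in at least 2 comparisons. Other genes are named to describe a family. The members and lists were chosen with earlier results of these data known. Alternatives covered the P and fold criteria, background correction, dim probes, outlier spots, the matrix, single arrays, weeks and slides. The number of arrays limits the precision, and exon or UTR positions of probes were not analysed here.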

Additional observations from a re-analysis of the deposited data

Results flagged for a closer look

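For 4 genes whose brightest probe was called in 1 week, both arrays of that week lay on the opposite side of 0 from both arrays of another week of the same treatment. Other members also changed side between weeks without a call of that probe in either week, such as Sfrp4, Wnt2, Fzd10, Fzd1 and Wnt11 in N-CE, and are left out of this count. These differences between weeks were not tested. Sfrp2 in MXD was 0.52 at 1W and -1.22 at 2W, a difference of 1.74 (1W minus 2W), and with 0.11 at 3W the difference of 2W minus 3W was -1.33. Fzd1 in MXD was 0.77 at 2W and -0.21 at 3W, a difference of 0.97. Fzd5 in N-CE had -1.18 in the first week, then 0.51 and 0.41, so that 1W differed by -1.69 from 2W and by -1.59 from 3W. Wnt5a in N-CE had -0.79 in the first week, then 0.39 and 0.28, with differences of -1.19 and -1.07.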

How the results depend on the processing

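Counts of called members depended most on the P criterion. With fold alone, 10 member probes passed in MXD 1W, 30 in MXD 2W and 3 in MXD 3W, and 20 in N-CE 1W, 5 in N-CE 2W and 2 in N-CE 3W. With normexp and loess, 1 was called in MXD 1W, where Rspo2 was lost, 12 of the 14 were kept in MXD 2W, and 3 of the 3 in N-CE 1W. Symmetric folds, and a requirement of signal above background in both groups on both arrays, kept all called member probes of these 3 comparisons. With a single array of the dye swap, 4 to 6 member probes were called in MXD 1W, 18 to 20 in MXD 2W, 0 to 1 in MXD 3W, 7 in N-CE 1W, 3 to 4 in N-CE 2W and 0 to 1 in N-CE 3W. Shares over all probes were not taken under these alternatives. The counts therefore show the dependence on the criteria and cannot set the members apart from the whole array.

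The limma fits called 0 probes under each alternative run: without 1W, 2W or 3W, with normexp and loess, with dim probes left out, and with the slide as a random block. The same-week pairing of the treatments as a fixed replicate block also called 0, and by construction equals the within-week difference. The lowest adjusted p lay between 0.125 and 0.874 for MXD. Counts at an unadjusted p under 0.05 moved more: without 2W there were 2043 for MXD (4220 with all weeks) and 1331 for the difference of treatments (2021), which had 4957 without 3W. For N-CE (1013) there were 1739 without 1W, 1535 without 2W and 255 without dim probes.

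Of 150 log2 folds of named genes, 7 changed sign with normexp and loess, and 0 of these were called values. With it 38 folds moved by more than the SD of their dye swap. The cause was not tested. With the median over a gene's probes, 2 of 133 changed sign. Of 42 family medians, 1 changed sign with normexp and loess, and 3 and 6 did so on the first or second array alone. Dkk4, Wnt2b, Wnt8a and Wnt8b were above background in no comparison, and their folds are not given here. The limma fits included their probes, and the 150 folds included Dkk4.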
